A study of Sus scrofa with 6 samples.

Results

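NKL, NKG7, GZMB, GZMK, FCER1G, XCL1, CCL5 and CXCR6 are genes of cytotoxic lymphocytes, and these 8 were taken by name from gene tables that list 4122 genes of the pig. The RNA of thymus, spleen and lymph node was sequenced from pigs with a RAG2 biallelic knockout (RAG2-KO) and from their wild-type littermates, all 3 months old per the labels. Each tissue and genotype holds 1 library, 6 in all, so no difference has a replicate check and no p-value is given. The series title describes immunodeficient pigs that lack a single amino acid. The labels name no animal behind a library, so it is not known whether the 3 tissues of a genotype came from the same pig.

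Natural killer (NK) cells and cytotoxic T cells kill target cells by releasing granules that hold pore-forming and protein-cutting molecules. T cells must first assemble an antigen receptor with the RAG1 and RAG2 recombinase, whereas NK cells recognise their targets through receptors that need no rearrangement. NK-lysin, the product of NKL, was purified from pig intestine and kills bacteria and tumour cells. No gene of the 8 belongs to a single cell type. By textbook use NKL, NKG7, GZMB, FCER1G and XCL1 are taken here as the 5 NK-type genes, and GZMK, CCL5 and CXCR6 as the 3 T-type genes, which memory and tissue-resident T cells express at high level.

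Fragments assigned to the listed genes numbered 1922563 to 2541724 per library, which is not the full depth of a library. RAG2 stood at 1072 FPKM in the RAG2-KO thymus and 606 FPKM in the wild-type thymus, and at 1.16 FPKM or less in the other 4 libraries, so that it marks the thymus but, as a transcript level, does not check the genotype. EIF1AY, which the pig reference places on chromosome Y, had 209, 194 and 597 fragments in RAG2-KO lymph node, spleen and thymus, against 0, 0 and 1 in the wild-type libraries. The labels give no sex, and a difference of sex between the sampled pigs cannot be told apart from genotype in these libraries.

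Levels are in FPKM, fragments normalised to transcript length and scaled by library. In thymus the scaling did not follow the totals of listed fragments, 2397922 in RAG2-KO and 2541724 in wild type. NKL had 1.02 FPKM per fragment in RAG2-KO thymus and 1.05 in wild-type thymus. Genotypes were compared within a tissue by the log2 ratio, log2(RAG2-KO FPKM + 1) minus log2(wild-type FPKM + 1), a scale that understates the change of low genes. A call of higher or lower needs a ratio of at least 1 in size and at least 1 FPKM in 1 of the 2 libraries, which makes a gene measured. Folds were taken from the fragment counts instead, with their scaling kept, and carry a 95% Clopper-Pearson interval. That interval covers counting error alone, not the spread between pigs. In whole tissue, more cells of a type and more RNA per cell cannot be told apart.

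Of the 8 genes, 4 were called higher in the RAG2-KO library of every tissue: NKL, NKG7, CCL5 and CXCR6. They include 2 NK-type and 2 T-type genes. Among the 2671 genes measured in all tissues, 1.91% were higher in each of the 3. By tissue, lymph node had 4 of the 8 members higher, against 15.3% of all measured genes. Spleen had 5 of 8 higher, against 8.88%, and thymus 5 of the 7 measured, against 15.2%. Lower calls were 0 in lymph node, 1 in spleen (GZMK) and 1 in thymus (XCL1), against 10.3, 10 and 10.9% of all measured genes, and 0 members were lower in all 3 tissues, against 1.42%. The median log2 ratio of the members was 1.05, 1.34 and 1.22 in lymph node, spleen and thymus. Over all measured genes it was -0.00456, -0.0159 and -4.72e-05.

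NKL, listed in the reference as GNLY, lies on chromosome 3 at 59067327 to 59072034 in Sscrofa11.1, with an unnamed pseudogene starting 240 bp away. It had the largest log2 ratio of the 8 in each tissue (4.41, 3.36 and 3.61 in lymph node, spleen and thymus), except in spleen with 0.1 FPKM added, where GZMB reached 5.61. In lymph node it stood at 299 FPKM in the RAG2-KO library (292 fragments) and 13.1 FPKM in the wild-type library (12 fragments), 23.3-fold higher (interval 13.1 to 45.6). In spleen the values were 909 FPKM in RAG2-KO and 87.5 FPKM in wild type, 10.7-fold higher (8.53 to 13.6). These levels placed NKL as the 134th most abundant of the 4122 listed genes in RAG2-KO spleen and the 1009th in wild-type spleen. In thymus it stood at 36.7 FPKM in RAG2-KO (36 fragments) and 2.09 FPKM in wild type (2 fragments), a ratio of 17.6 with a wide interval of 4.52 to 151. NKL was thus high in the RAG2-KO library of each tissue, and its counting intervals did not overlap those of NKG7 or CCL5 in the same tissue.

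Transcripts of the 2 granzymes among the 8, the granule serine proteases granzyme B and granzyme K, were scarce. GZMB (chromosome 7, 74705499 to 74708781) cuts caspases and other proteins in target cells. It had 12 fragments in RAG2-KO spleen (4.77 FPKM) and 0 in wild-type spleen. The ratio was 3.43 with the empty library set to 3 fragments, and the counting interval of the ratio began at 2.38. Elsewhere GZMB had 4 fragments in RAG2-KO and 1 in wild-type lymph node (ratio 3.83, interval 0.379 to 188), and 0 in RAG2-KO and 1 in wild-type thymus, too few to show a direction. With 5 FPKM added in place of 1, the spleen log2 ratio of GZMB was 0.967, short of a call, and a minimum of 5 FPKM removed it from the measured genes.

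GZMK (chromosome 16, 34217339 to 34226139) went the other way in spleen. It stood at 1.22 FPKM in the RAG2-KO spleen (3 fragments) and 6.74 FPKM in the wild-type spleen (14 fragments), 5.45-fold lower with an interval of 1.52 to 29.6. The call ended with 5 FPKM added, at a log2 ratio of -0.916. In lymph node GZMK had 6.55 FPKM in RAG2-KO and 10.8 FPKM in wild type, a ratio of 0.609 (0.288 to 1.24) whose interval includes equal levels. Thymus held 3 fragments in RAG2-KO and 2 in wild type, where no difference was detectable at this depth. GZMK was the only member with a log2 ratio below 0 in both lymph node and spleen, the other 7 being above 0 there.

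Of 22 genes searched for granules and death ligands, 14 were found in the tables, 4 of them members (NKL, NKG7, GZMB, GZMK). Among the remaining 10, 1 of 6 measured was higher in lymph node and 1 of 7 in spleen, and in thymus 2 of 7 were higher and 1 lower. The shares of all measured genes called higher were 15.3, 8.88 and 15.2% in lymph node, spleen and thymus, and 10.9% were called lower in thymus. TNFSF10, the death ligand TRAIL, stood at 554 FPKM in RAG2-KO and 247 FPKM in wild-type lymph node, 2.26-fold higher (2.08 to 2.45). It was 2.35-fold higher in thymus (2.05 to 2.7), and in spleen its log2 ratio of 0.93 was short of a call. The death ligand FASLG was called higher in spleen, with 20 fragments in RAG2-KO and 7 in wild type and an interval of 0.994 to 6.85 that includes equal levels. CST7, an inhibitor of granule cathepsins, was lower in thymus at 16.4 FPKM in RAG2-KO and 42.0 FPKM in wild type. GZMA, another granzyme, was called higher in thymus on 9 fragments in RAG2-KO and 1 in wild type, a ratio of 8.79 (1.22 to 385). Elsewhere it had 4 fragments or fewer in a library. The reference lists 2 entries under that symbol, so its fragments may be split between copies. GZMH, GZMM and SERPINB9 were listed at 0 in all 6 libraries. A listed 0 may be a failed estimate here, since CD163, a macrophage receptor, and the interferon-signalling gene STAT2 were listed at 0 in all 6 libraries too.

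NKG7 (chromosome 6, 58496089 to 58497827) encodes a granule membrane protein needed for granule release. It stood at 103 FPKM in RAG2-KO and 45.6 FPKM in wild-type lymph node, 2.28-fold higher (1.86 to 2.82). Spleen held 228 FPKM in RAG2-KO and 84.9 FPKM in wild type, 2.72-fold higher (2.36 to 3.14), and thymus 49.7 FPKM in RAG2-KO and 20.8 FPKM in wild type, 2.39-fold higher (1.78 to 3.25). The 3 intervals overlap, so a difference between tissues was not detectable by counting error. Per unit of NKG7, NKL was more abundant in each RAG2-KO library: the FPKM ratio of NKL to NKG7 was 2.89 in RAG2-KO and 0.287 in wild-type lymph node, 3.98 and 1.03 in RAG2-KO and wild-type spleen, and 0.739 and 0.101 in RAG2-KO and wild-type thymus.

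**Figure D1:**
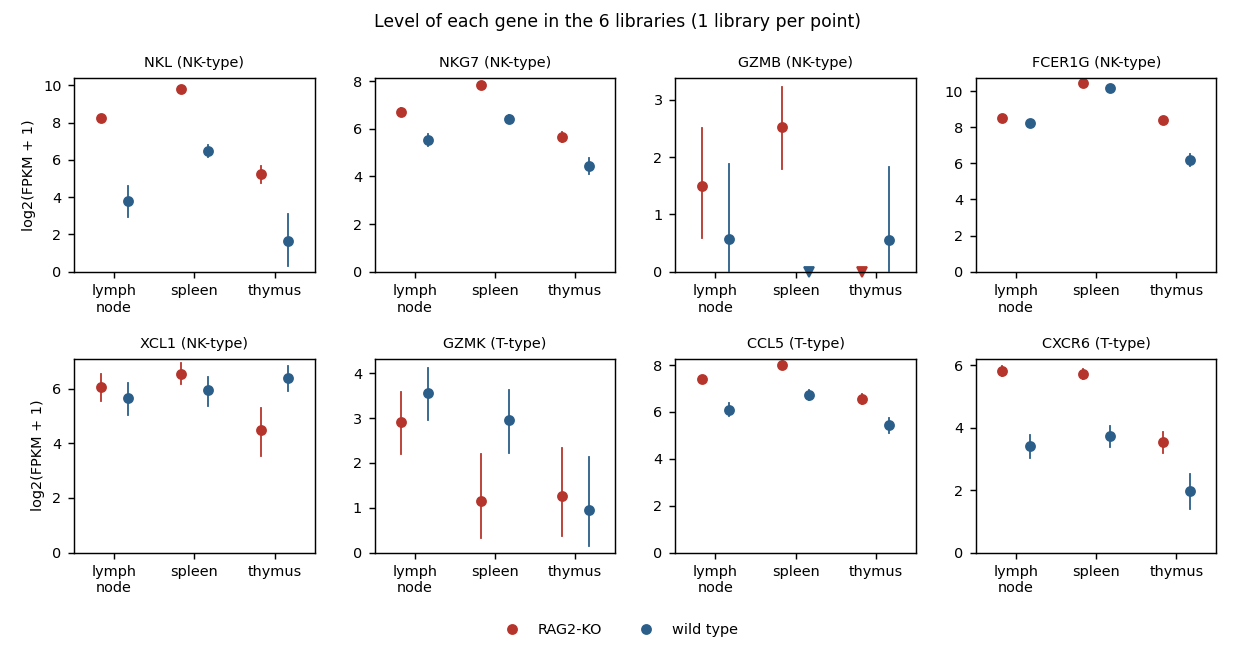
Level of each gene as log2(FPKM + 1) on the vertical axis, by tissue, with RAG2-KO in red left of wild type in blue. Each point is 1 library, bars are 95% Poisson intervals of the fragments, and triangles mark libraries with 0 fragments. NKL, NKG7, CCL5 and CXCR6 are higher in the RAG2-KO library of every tissue, while GZMK is lower in spleen and XCL1 in thymus.

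Of 24 NK receptor and signalling genes searched, 7 were found and 6 were measured. NCR1, the NK receptor NKp46, was listed at 0 in all 6 libraries, which may be a failed estimate and does not show that NK cells are absent. None of the 6 was called higher in lymph node or spleen and 1 was in thymus (TYROBP), while 2, 1 and 2 were lower in lymph node, spleen and thymus. With 6 genes, counts of 0 or 1 higher are near the shares over all measured genes (15.3, 8.88 and 15.2%). The shares of all measured genes that were lower were 10.3, 10 and 10.9%. The median log2 ratios of the list were -0.0332, -0.256 and 0.316. KLRK1, the activating receptor NKG2D, stood at 72.0 FPKM in RAG2-KO and 42.6 FPKM in wild-type lymph node, 106 FPKM in RAG2-KO and 58.4 FPKM in wild-type spleen, and 25.8 FPKM in RAG2-KO and 13.6 FPKM in wild-type thymus. Its log2 ratios of 0.74, 0.85 and 0.88 were short of a call, with counting intervals above equal levels in each tissue (folds of 1.71, 1.85 and 1.90). HCST, the adaptor DAP10 through which NKG2D signals, was lower in spleen, with 9 fragments in RAG2-KO and 27 in wild type. CD247, a signalling chain shared by the T-cell receptor and NK receptors, was 4.29-fold lower in lymph node (3.79 to 4.86) and 3.12-fold lower in thymus (2.99 to 3.25). The kinase SYK, which is not particular to NK cells, was 2.84-fold lower in lymph node (2.17 to 3.73). CD96, an adhesion receptor of T and NK cells, was 3.49-fold lower in thymus by fragment counts (2.33 to 5.35). By FPKM the difference was smaller, at 18.1 FPKM in RAG2-KO and 40.6 FPKM in wild type (log2 ratio -1.12), so its size depends on the measure. Among receptors found under other names, a list made after the gene names were seen, LY49 had 4 fragments or fewer in each library, and KIR2DL1 and FCGR3B were listed at 0 in all 6.

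FCER1G (chromosome 4, 89242467 to 89246344) encodes the Fc receptor gamma chain, a signalling adaptor of NK cells, macrophages, neutrophils and mast cells. In spleen, where it was most abundant, it stood at 1382 FPKM in RAG2-KO and 1147 FPKM in wild type. Lymph node held 370 FPKM in RAG2-KO and 303 FPKM in wild type. Both ratios, 1.23 (1.15 to 1.32) and 1.24 (1.08 to 1.43), were above equal levels by counting error and well short of a call. In thymus it was called higher, at 332 FPKM in RAG2-KO and 72.3 FPKM in wild type, 4.59-fold (3.64 to 5.85). That interval does not overlap those of spleen and lymph node.

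The gene with the profile nearest to FCER1G over the 6 libraries was TYROBP, a related adaptor of NK and myeloid cells, with a root mean square difference of 0.24 in centred log2 levels against a median of 1.57 over 2755 genes. TYROBP stood at 375 FPKM in RAG2-KO and 116 FPKM in wild-type thymus, 3.23-fold higher (2.62 to 4.01). The next was AIF1, a macrophage gene. In thymus macrophage markers were mostly higher too: 10 of 13 measured were higher and 1 lower (median log2 ratio 1.28), and the FPKM of the 15 listed markers summed to 3721 in RAG2-KO and 1282 in wild type. In spleen 4 of 13 were higher and 2 lower (median -0.0272), with sums of 24784 FPKM in RAG2-KO and 31080 FPKM in wild type. In lymph node 4 of 13 were higher and 0 lower (median 0.60), with sums of 16505 FPKM in RAG2-KO and 10908 FPKM in wild type. Over all measured genes, 15.3, 8.88 and 15.2% were higher in lymph node, spleen and thymus, and 10.3, 10 and 10.9% were lower. CD163 and TREM2 were at 0 in every library. The part of macrophages in the FCER1G values was not tested. Receptors that pair with FCER1G or signal beside it had 6 of 12 searched genes in the tables and 5 measured. The Fc gamma receptor FCGR1A, which is also on the macrophage list, was higher in lymph node and in spleen. In both it had 10 fragments in RAG2-KO and 0 in wild type. With the empty library set to 3 fragments, the ratio was 3.19 in lymph node and 2.85 in spleen, leaving out the counting error of the 10. SYK was the gene of this list that was lower in lymph node, and 0 were lower in spleen. In thymus 2 were higher and 0 lower, TYROBP and MS4A2, the beta chain of the high-affinity IgE receptor, with 59 fragments in RAG2-KO and 19 in wild type.

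XCL1 (chromosome 4, 82432845 to 82436150) encodes lymphotactin, a chemokine made by NK cells and activated CD8 T cells that draws XCR1-bearing dendritic cells. In thymus it stood at 21.3 FPKM in RAG2-KO (11 fragments) and 83.4 FPKM in wild type (42 fragments), 3.91-fold lower (1.98 to 8.42). In spleen it stood at 93.7 FPKM in RAG2-KO and 60.8 FPKM in wild type, a ratio of 1.63 (1.03 to 2.62) short of a call. Lymph node had 66.6 FPKM in RAG2-KO and 49.5 FPKM in wild type, with an interval of 0.807 to 2.45 that includes equal levels. The thymus is therefore the tissue in which XCL1 differs in the other direction from NKL, NKG7, CCL5 and CXCR6. Its receptor XCR1 was higher in thymus, at 18.0 FPKM in RAG2-KO and 3.35 FPKM in wild type, 5.42-fold (3.68 to 8.22). XCR1 was also higher in spleen, 2.25-fold (1.79 to 2.85), and in lymph node its log2 ratio of 0.996 fell just short of a call.

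CCL5 (chromosome 12, 39652731 to 39659121), the chemokine RANTES, is stored and secreted by memory T cells and NK cells. Its levels were 167 FPKM in RAG2-KO and 67.8 FPKM in wild-type lymph node, 253 FPKM in RAG2-KO and 105 FPKM in wild-type spleen, and 92.9 FPKM in RAG2-KO and 42.2 FPKM in wild-type thymus. The folds were close to each other, 2.48 (1.98 to 3.13), 2.45 (2.06 to 2.93) and 2.2 (1.65 to 2.95), each interval holding the other 2 values. Among its receptors, CCR1, which monocytes and neutrophils carry, was 5.72-fold higher in thymus (4.43 to 7.48) and 2.11-fold higher in spleen (2.0 to 2.24). CCR3 was lower in thymus, with 4 fragments in RAG2-KO and 67 in wild type.

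CXCR6 (chromosome 13, 29095900 to 29100666) encodes a receptor of tissue-resident T, NK and innate lymphoid cells. Lymph node held 55.6 FPKM in RAG2-KO and 9.70 FPKM in wild type, 5.76-fold higher (4.27 to 7.91). Spleen held 51.8 FPKM in RAG2-KO and 12.2 FPKM in wild type, 4.26-fold higher (3.26 to 5.63), and thymus 10.6 FPKM in RAG2-KO and 2.90 FPKM in wild type, 3.66-fold higher (2.08 to 6.81). CXCR6 thus differed more than NKG7 and CCL5 in lymph node and in spleen, where the intervals do not overlap, and in thymus they do. The thymus call ended with 5 FPKM added, at 0.983. CXCR6 lies inside the span of FYCO1, and whether the fragments were counted by strand is not given in the sources used here. FYCO1 itself had ratios of 1.27, 0.926 and 1.22 in lymph node, spleen and thymus. The ligand of CXCR6, CXCL16 (listed as SR-PSOX), was called higher in thymus, 2.51-fold (1.91 to 3.34), and had log2 ratios of 0.78 and 0.76 in lymph node and spleen.

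**Figure D2:**
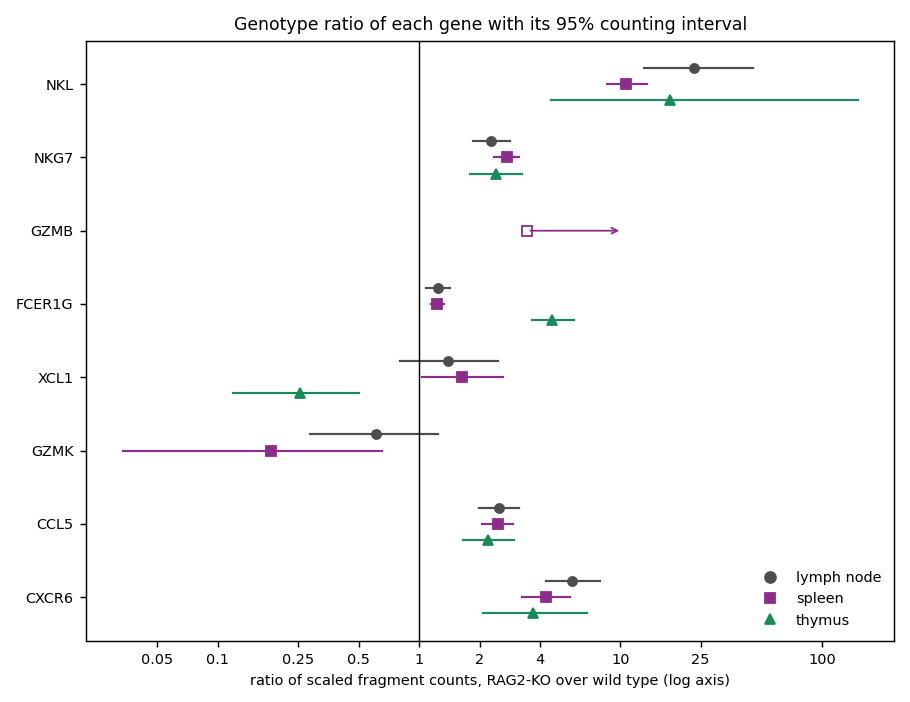
Ratio of scaled fragment counts, RAG2-KO over wild type, on a log axis for each gene, with 95% Clopper-Pearson intervals, for lymph node (circles), spleen (squares) and thymus (triangles). Pairs with fewer than 10 fragments in sum are left out, and the open square with an arrow is GZMB in spleen with its empty library set to 3 fragments. NKL lies at 10.7 to 23.3, NKG7 and CCL5 between 2.2 and 2.72, and XCL1 falls on both sides of equal levels.

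The list of 10 measured ligands and receptors of XCL1, CCL5 and CXCR6, with the related chemokines CCL4, CXCL9, CXCL10 and CXCL11, had 3 genes higher and 0 lower in lymph node (median log2 ratio 0.65), 7 and 0 in spleen (median 1.30), and 5 higher and 2 lower in thymus (median 0.71). The interferon-induced chemokines were high in RAG2-KO spleen. CXCL9 stood there at 694 FPKM in RAG2-KO and 55.9 FPKM in wild type, 12.8-fold higher (9.49 to 17.8). CXCL10 was 6.24-fold higher (5.54 to 7.06). In lymph node and thymus CXCL9 had log2 ratios of 0.10 and -0.32. CXCL10 stood at 154 FPKM in RAG2-KO and 121 FPKM in wild-type lymph node, and at 121 FPKM in RAG2-KO and 112 FPKM in wild-type thymus. CXCL11 was called higher in all 3 tissues, with 0 fragments in wild-type lymph node. IFNG, the interferon that NK and T cells secrete, had 12 fragments in RAG2-KO and 2 in wild-type spleen (5.14-fold, 1.14 to 47.3). Lymph node held 4 fragments of IFNG in each genotype, and thymus 0 in RAG2-KO and 2 in wild type. Of the interferon-response genes measured in spleen, 13 of 19 were higher and 0 lower, while lymph node had 7 of 19 higher and 0 lower and thymus 7 of 20 higher and 1 lower. Beside both lists, 15.3, 8.88 and 15.2% of all measured genes were higher in lymph node, spleen and thymus, and 10.3, 10 and 10.9% lower.

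NK-type genes were not higher than T-type genes in every tissue. The median log2 ratio of the 5 NK-type genes was 0.93, 1.42 and 1.22 in lymph node, spleen and thymus, and that of the 3 T-type genes 1.28, 1.26 and 1.12. The difference of medians, NK-type minus T-type, was -0.35, 0.16 and 0.10, and in spleen it turned to -0.26 with 5 FPKM added. In lymph node the NK-type median was the value of GZMB, which rests on 4 fragments in RAG2-KO and 1 in wild type. The NK-type genes next to it in order, XCL1 and NKG7, had log2 ratios of 0.42 and 1.17 there, both below the T-type median. In thymus GZMB was not measured, and over the 4 measured NK-type genes the median was 1.70 and the difference 0.58. Each class held a gene that went against the rest, GZMK among the T-type genes in spleen and XCL1 among the NK-type genes in thymus. Of every 100000 listed fragments, the 8 members took 84.7 in RAG2-KO and 36.7 in wild-type lymph node. Their share was 187 in RAG2-KO and 95.4 in wild-type spleen, and 35.1 in RAG2-KO and 11.3 in wild-type thymus. With FCER1G left aside, the other 7 members took 62.1 of every 100000 listed fragments in RAG2-KO and 18.4 in wild-type lymph node, 109 in RAG2-KO and 29.8 in wild-type spleen, and 17.8 in RAG2-KO and 7.79 in wild-type thymus.

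CCL5 and CXCR6 were higher in libraries in which most genes of a T-cell list, which spans receptor chains, coreceptors, costimulators and signalling genes, were lower. Of 26 genes searched, 18 were found, and 16 of 18 measured were lower in lymph node (median log2 ratio -3.64), 11 of 17 in spleen (median -1.32) and 13 of 18 in thymus (median -1.97), where IL7R was higher. Over all measured genes, 10.3, 10 and 10.9% were lower in lymph node, spleen and thymus. CD3E, a chain of the T-cell receptor complex, stood at 0.929 FPKM in RAG2-KO and 292 FPKM in wild-type lymph node, and at 2.16 FPKM in RAG2-KO and 155 FPKM in wild-type spleen. CCL5 was thus 179 times as abundant as CD3E in RAG2-KO lymph node by FPKM and 0.232 times as abundant in wild-type lymph node, the RAG2-KO value resting on 3 fragments of CD3E. Of the 3 CD3 chains, 3 were lower in lymph node, 1 in spleen and 1 in thymus. In spleen the other chains were not called: CD3D stood at 92.9 FPKM in RAG2-KO and 83.7 FPKM in wild type, and CD3G at 52.9 FPKM in RAG2-KO and 81.6 FPKM in wild type. CD8A, a coreceptor that some NK cells of pigs carry as well, stood at 6.43 FPKM in RAG2-KO and 17.6 FPKM in wild-type spleen. In thymus CD3E remained abundant, at 918 FPKM in RAG2-KO and 1685 FPKM in wild type.

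**Figure D3:**
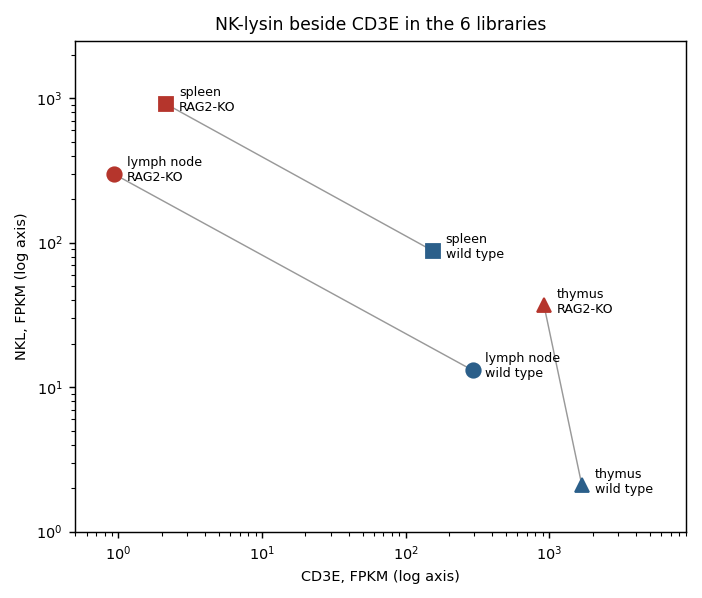
FPKM of NKL on the vertical axis and of CD3E on the horizontal axis, both log axes, in the 6 libraries, with a line joining the 2 libraries of a tissue. RAG2-KO lymph node and spleen combine 299 and 909 FPKM of NKL with 0.929 and 2.16 FPKM of CD3E, while in thymus NKL is at 36.7 and 2.09 FPKM, with CD3E at 918 FPKM in RAG2-KO and 1685 FPKM in wild type.

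Markers of other cell types were compared in the same libraries. Of all measured genes, 15.3, 8.88 and 15.2% were higher in lymph node, spleen and thymus, and 10.3, 10 and 10.9% were lower. Neutrophil genes were higher in 7 of 8 measured cases in lymph node with 1 lower, 9 of 9 in spleen and 8 of 9 in thymus. The FPKM of the 10 listed neutrophil genes summed to 606 in RAG2-KO and 44.0 in wild-type lymph node, 1807 in RAG2-KO and 49.0 in wild-type spleen, and 2508 in RAG2-KO and 153 in wild-type thymus. HBB, a red-cell gene, stood at 6738 FPKM in RAG2-KO and 376 FPKM in wild-type lymph node and at 4782 FPKM in RAG2-KO and 912 FPKM in wild-type thymus, and was lower in spleen, at 18970 FPKM in RAG2-KO and 41406 FPKM in wild type. B-cell genes were lower in 7 of 7, 6 of 7 and 5 of 7 measured cases in lymph node, spleen and thymus. Of the innate lymphoid genes, a family of cells related to NK cells, 3 of 9 measured were higher and 2 lower in lymph node, 0 and 5 of 8 in spleen, and 1 and 4 of 9 in thymus. These counts are not particular to innate lymphoid cells. The list shares IL7R with the T-cell list, KIT with the mast cell list, and ID2 and GATA3 with a list of transcription factors of cytotoxic lymphocytes. LTA and LTB were lower in all 3 tissues and were the 2 lower genes in lymph node. Dendritic cell genes had 0 of 8 higher and 1 lower in lymph node, and 3 higher and 4 lower in spleen and in thymus. Mast cell and basophil genes had 1 of 3 higher in lymph node and in thymus, and 1 of 3 lower in spleen. With so few genes, the mast cell and basophil counts, and those of dendritic cell genes in lymph node, are near the shares over all measured genes. The part of these cell types in the values of the 8 genes was not tested.

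**Figure D4:**
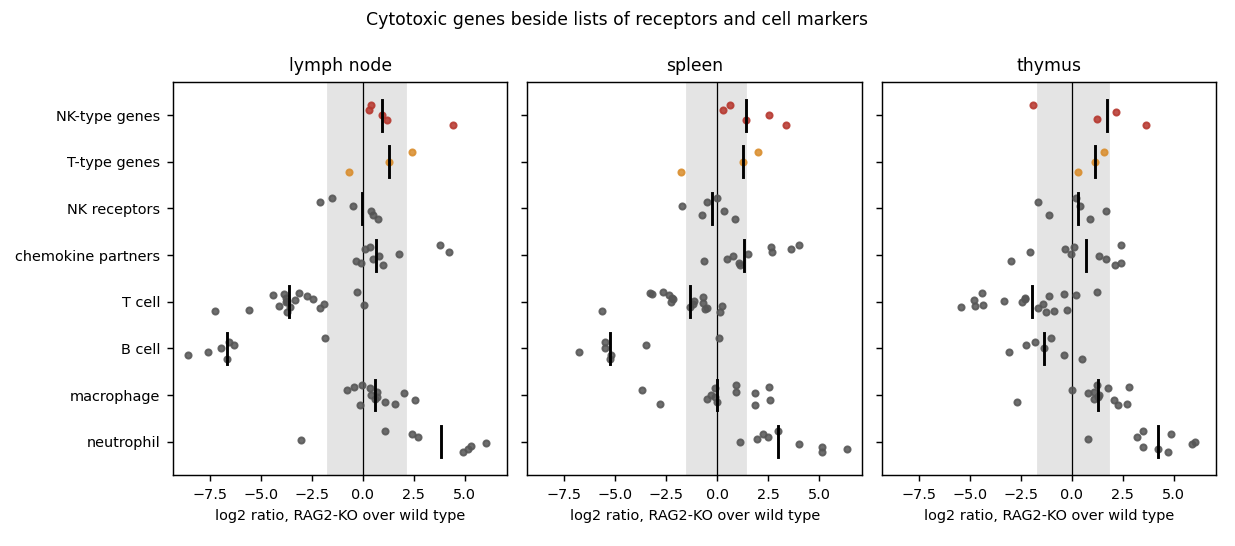
Log2 ratio of RAG2-KO over wild type on the horizontal axis for each measured gene (points) of the NK-type and T-type genes and of 6 lists, by tissue, with the list median as a bar. The grey band spans the 5th to 95th percentile of all measured genes. NK-type and T-type genes lie mostly above 0, most T-cell and B-cell genes below 0, and the medians of neutrophil genes above those of the cytotoxic genes.

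Cytokines that sustain NK cells were mixed, with 3 of 13 measured genes higher and 3 lower in lymph node, 2 and 3 of 11 in spleen, and 0 and 6 of 13 in thymus. Of the 6 lower in thymus, IL21, IL2 and IFNG had 0 fragments in RAG2-KO and 1, 3 and 2 in wild type, with intervals that include equal levels. The shares of all measured genes called lower were 10.3, 10 and 10.9%, and those called higher 15.3, 8.88 and 15.2%. IL15, the main survival factor of NK cells, was higher in lymph node, at 33.3 FPKM in RAG2-KO and 8.87 FPKM in wild type (3.83-fold, 1.73 to 9.61), and in spleen, at 41.5 FPKM in RAG2-KO and 18.4 FPKM in wild type (2.32-fold, 1.30 to 4.31). In thymus IL15 had 6 fragments in RAG2-KO and 12 in wild type. Among the receptors of IL12 and IL18, which activate NK and T cells, IL12RB1 was lower in thymus, 21.7-fold (12.7 to 40.1), and so was IL18R1, listed as IL-18RA, 42.5-fold (16.3 to 158). IL12RB2, the other chain of the IL12 receptor, was lower in lymph node (3.92-fold, 2.04 to 8.14) and in spleen (4.33-fold, 2.94 to 6.52). In thymus it stood at 49.6 FPKM in RAG2-KO and 26.8 FPKM in wild type, a ratio of 1.85 (1.57 to 2.19) short of a call. Of the transcription factors of cytotoxic lymphocytes, 4 of 15 were found. STAT4, which relays the IL12 signal, was lower in lymph node (2.63-fold, 2.14 to 3.26) and thymus (6.42-fold, 3.70 to 11.9), and GATA3 was lower in spleen and thymus. ID2, needed for NK cells to form in the mouse, had log2 ratios of 0.36, 0.65 and -0.06 in lymph node, spleen and thymus.

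The tables of the 3 tissues were normalised separately, so an order of levels across tissues is approximate. NKL, NKG7 and CCL5 shared the same order: RAG2-KO spleen, RAG2-KO lymph node, wild-type spleen, RAG2-KO thymus, wild-type lymph node and wild-type thymus. For NKL each library's Poisson interval lay below that of the one before it, except wild-type thymus, at 0.253 to 7.55 FPKM against 6.76 to 22.9 FPKM in wild-type lymph node. For NKG7, RAG2-KO lymph node and wild-type spleen could not be separated (92.4 to 115 and 74.8 to 95.9 FPKM), nor RAG2-KO thymus and wild-type lymph node (42.2 to 58.1 and 38.2 to 54.0 FPKM). For CCL5 the neighbours from wild-type spleen to wild-type lymph node overlapped. CXCR6 was highest in RAG2-KO lymph node and spleen, whose intervals overlap, and lowest in wild-type thymus. FCER1G was highest in spleen of both genotypes and lowest in wild-type thymus. XCL1 was lowest in RAG2-KO thymus and highest in RAG2-KO spleen, followed by wild-type thymus. GZMK was highest in wild-type lymph node and GZMB in RAG2-KO spleen. For XCL1, GZMK and GZMB no neighbours in the order could be separated.

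Profiles over the 6 libraries were compared by the root mean square difference of centred log2 levels, as a description. Within the 8, NKG7 and CCL5 were the closest pair (0.30), followed by NKG7 and CXCR6 (0.57), and NKL and GZMK were the farthest apart (2.85). For CCL5 the nearest genes were LRPAP1 (0.13), the interferon-induced gene IFIT1 (0.24) and SAT2 (0.25). NKG7 came nearest to NHLRC1, IFIT3 and SCIN (0.24 to 0.30). The genes nearest to NKL were ITIH3, TIMP1 and GPIHBP1, at 0.89 to 1.23 against a median of 2.82 over all genes. CXCR6 lay nearest to LOC780439, PLA2G16 and GPR84 (0.37 to 0.42), XCL1 to CST7, ITGAL and NFKB1 (0.35 to 0.37), and GZMK to PMEPA1, B2R and IL6R (0.28 to 0.33). GZMB, on 12 fragments or fewer, lay nearest to MITF, CXCL10 and SYN1 (0.37 to 0.43). The third for FCER1G was IGSF6 (0.28).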

How the data were processed

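FPKM values and counts were deposited by the authors in 1 table of each unit per tissue. FastQC 0.11.9, Trimmomatic 0.39, STAR 2.7.9a, Cufflinks 2.2.1 and build Sscrofa11.1 are named per the submitters' processing notes. The sources used here do not give their order, settings, annotation or use of strand. Per the labels' protocols, RNA was extracted with RNeasy and libraries were made with the TruSeq stranded total RNA kit. The deposited counts are expected counts multiplied by 1 factor per library: divided by that step, 98.7 to 99.3% of values above 0 were whole within 0.02, and all were rounded.

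Genes reaching 1 FPKM in 1 library of a tissue were measured. The log2 ratio used a pseudocount of 1 FPKM and calls an absolute value of 1. Clopper-Pearson and Poisson intervals (95%) cover counting error only, and floors of 3 fragments leave out the counting error of the other library. Calculations were tested on simulated counts. The members, lists and alternatives were chosen with earlier results of these data known. Of 238 list genes, 145 were found, 6 under older names. Named genes are the 8 members, fixed markers, up to 4 called genes per list and tissue with at least 10 fragments in 1 library, and the 3 nearest profiles of each member among genes with at least 5 FPKM and 10 fragments. Other genes named, among them RAG2, EIF1AY, FYCO1, ID2 and list genes at 0 or short of a call, were chosen after their values were seen. Alternatives used edgeR 4.0.16 (TMM) and DESeq2 1.42.0 (size factors) with 1 CPM added. Python 3.11.15, numpy 2.4.6, pandas 2.3.3, scipy 1.17.1 and R 4.3.3 were used.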

Additional observations from a re-analysis of the deposited data

Results flagged for a closer look

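XCL1 stands out because its genotype ratio lay on opposite sides of equal levels in 2 tissues, each by an interval of counting error that leaves out equal levels. The log2 ratio of RAG2-KO over wild type was 0.62 in spleen (57 fragments in RAG2-KO, 30 in wild type) and -1.92 in thymus (11 in RAG2-KO, 42 in wild type), a difference of 2.53. With 1 library per group, the difference between the tissues was not tested.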

How the results depend on the processing

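Each of 11 alternatives kept the sign of all 24 log2 ratios of the members. Only rescaling the counts or centring on the median of all measured genes could have changed a sign. Another pseudocount, minimum or threshold, or the counting interval, could not. The 4 genes higher in every tissue were 3 with 5 FPKM added and 1 with a threshold of 2 on the log2 ratio, and 4 under the other alternatives. Applying the alternatives to this count was chosen after seeing the data. With the threshold of 2, members higher numbered 2 in lymph node, 2 in spleen and 2 in thymus, and members lower 0 in spleen and 0 in thymus. Over all genes it gave 163 higher and 112 lower in lymph node, 79 and 76 in spleen, and 110 and 105 in thymus, and over the other list genes 13 higher in lymph node, 18 higher and 18 lower in spleen, and 18 and 22 in thymus. With 5 FPKM added, 0 members were lower in spleen, the totals over all genes were 166 higher and 160 lower for spleen, 272 and 183 for thymus, list genes lower in thymus 26, and the NK-type minus T-type median in spleen was -0.26. These changes follow from the stricter rule or larger pseudocount itself. Scaling counts to their total moved the thymus median of all genes by 0.116; no call of a member depended on it. No paired analysis was possible because each tissue and genotype has 1 library and no animal is named, and for the same reason no replicate could be left out. GZMB and GZMK rest on at most 22 fragments in a library, which limits what they can show.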
